A study of Homo sapiens with 12 samples.

Results

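TERT is the gene of the telomerase reverse transcriptase, and its surroundings on the short arm of chromosome 5 were described here in 6 ATAC-seq libraries. All peaks on chromosome 5 from 1000000 to 1600000 (hg19) were taken, a window of 600 kb set by position. That window was chosen with earlier results of these data known. It held 42 of the 170663 nuclear peaks of the 6 lists, and these fell into 22 of 84659 regions when overlapping peaks were merged. TERT spans 1253287 to 1295162 on the minus strand, so its start is at 1295162 and sequence upstream of it has higher coordinates. The promoter was taken as the 1000 bases on each side of that start (1294162 to 1296162), and the gene body as the rest of the gene. CLPTM1L lies upstream, at about 1318000 to 1345000.

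H7, a human embryonic stem cell line grown in mTeSR Plus, was compared with ARPE-19, a line of human retinal pigment epithelial cells grown in DMEM with fetal bovine serum. Neither line carried a treatment or an engineered allele per the labels. Each line had 3 libraries of 500000 cells, and the labels do not say whether these came from separate cultures, so p-values measure the spread between these libraries alone. The series was titled for the control of TERT expression by alternative splicing in development, and the window asks whether accessibility at the gene differs between a stem cell line and a differentiated line. The markers that define each line could not be checked, because gene models of hg19 were not used here.

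Telomerase extends chromosome ends by copying a template in its RNA subunit, and TERT is the protein that catalyses the copying. Embryonic stem cells are known to express it, while most differentiated cells keep the gene at very low levels. The TERT promoter is known to lack a TATA box and to be rich in C and G, with E-boxes bound by MYC-family factors and GC boxes bound by SP1. In a RefSeq table on GRCh38 the named protein-coding neighbours run in the order NKD2, SLC12A7, SLC6A19, SLC6A18, TERT, CLPTM1L, SLC6A3 and LPCAT1. NKD2 is an inhibitor of WNT signalling and SLC12A7 a potassium chloride cotransporter. SLC6A19 and SLC6A18 are members of a family of amino acid transporters, CLPTM1L is a membrane protein, SLC6A3 is the dopamine transporter, and LPCAT1 is an acyltransferase of phospholipid remodelling.

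The sequences upstream of the starts of TERT and CLPTM1L are shown because the TERT start had a peak in an H7 library and the stretch just above CLPTM1L had one in every ARPE-19 library. Each is the 250 bases before the RefSeq start on the minus strand (GRCh38.p14), at chr5:1295069-1295318 for TERT and chr5:1345100-1345349 for CLPTM1L, written 5′ to 3′. The capitals mark an E-box (CACGTG) and GC boxes (GGGCGG, or CCGCCC on the other strand). The table is on another build than the peaks and its starts were not placed on hg19, so a position counted from these starts need not match one counted from the start used for the peaks.
TERT: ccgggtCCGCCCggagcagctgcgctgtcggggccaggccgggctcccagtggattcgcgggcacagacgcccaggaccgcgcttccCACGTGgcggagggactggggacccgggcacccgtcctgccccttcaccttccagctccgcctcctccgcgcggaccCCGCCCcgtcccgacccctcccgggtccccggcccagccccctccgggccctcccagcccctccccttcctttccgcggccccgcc
CLPTM1L: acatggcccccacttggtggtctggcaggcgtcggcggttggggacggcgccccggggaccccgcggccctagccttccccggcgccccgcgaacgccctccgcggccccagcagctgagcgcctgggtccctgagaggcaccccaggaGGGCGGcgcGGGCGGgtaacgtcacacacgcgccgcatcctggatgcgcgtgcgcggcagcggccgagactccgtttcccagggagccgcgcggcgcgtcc

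The TERT sequence held 1 E-box, from 163 to 158 bases before the start, and 2 GC boxes, from 244 to 239 and from 86 to 81 bases before it. The CLPTM1L sequence held 2 GC boxes and no E-box. The longer ETS match searched for (CCGGAA, or TTCCGG on the other strand) was in neither. The shorter ETS core GGAA was not counted, and its other-strand form TTCC occurs in both sequences. Of 35116 promoter sequences of this length, 6.34% held an E-box, 42.6% a GC box and 14.5% the longer ETS match. The TERT sequence was 78.8% C and G with 28 CpG sites, and the CLPTM1L sequence was 77.2% C and G with 36, where the medians over all promoters were 58.0% and 11. The marked motifs do not overlap one another in these sequences, and a match in letters does not show that a factor was bound.

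At the TERT promoter a peak was called in 1 of the 3 H7 libraries, and in 0 of the 3 ARPE-19 libraries. It was in H7 replicate 1 and lay from 1295146 to 1295600, a width of 455 bases. It reached from 16 bases inside the gene to 438 bases upstream of the start, with its summit 319 bases upstream, at 1295481. The peak thus covered the start of TERT and the sequence directly before it. With 1 of 3 libraries against 0 of 3, Fisher's exact test gives a two-sided p of 1, and no other value is possible for such counts.

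The H7 replicate 1 peak at the TERT start was a strong one for its list. Its summit held 16 reads over a local background of 1.2 reads, which gave the authors' fold enrichment of 7.73 and −log10 q of 9.24. By −log10 q it ranked 1531st of the 15342 nuclear peaks of that library, at the 90.0th percentile. Reads here are those the peak caller piled up at the summit, recovered from the deposited fold and p-value. They were 24.5 times the genome-wide background of the library, which was taken here as a measure of its depth. Whether it tracks depth alike in each library was not tested, as the lists hold no read totals.

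Peaks of that strength in H7 replicate 1 were usually found again in the line, and this one was not. Recurrence was counted by merged region, which can join peaks of all libraries that do not each overlap directly. Of the 1539 peaks of H7 replicate 1 with at least its −log10 q, 84.8% shared a region with H7 replicate 2. For H7 replicate 3 this was 78.2%. A share of 8.25%, or 127 peaks, shared a region with neither, and the TERT promoter peak is among these. Absence in the other line was common at this strength, since 46.7% of the 1539 peaks had no peak in any ARPE-19 library. A share of 5.98%, or 92 peaks, was in no other library at all, as the TERT promoter peak was.

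The reads of the TERT promoter peak were then scaled to the other libraries by genome-wide background and set against the fewest reads that could be called there. The genome-wide background was 0.653, 0.592 and 0.633 reads in H7 replicates 1, 2 and 3, against 0.483, 0.458 and 0.425 reads in ARPE-19 replicates 1, 2 and 3. Scaled by these, the 16 reads would be 14.5 in H7 replicate 2 and 15.5 in H7 replicate 3, where at the scaled local background 7 reads would have passed the threshold of the list. They would be 11.8, 11.2 and 10.4 reads in ARPE-19 replicates 1, 2 and 3, where 6, 6 and 5 reads would have passed. The exact 95% Poisson interval of the 16 reads runs from 9.15 to 26.0, and its lower end scaled to the other libraries, 8.29 and 8.86 in H7 and 6.76, 6.41 and 5.96 in ARPE-19, lay above the limit in each. These intervals cover the counting error of the 16 reads alone, of a peak set here because it was called. They leave out the counting error of each other library, where a mean just above the limit can still give too few reads. Scaling by background takes no account of other differences. H7 replicate 3 had 8613 peaks and H7 replicate 1 had 15342, at backgrounds of 0.633 and 0.653. Reads may include duplicates, and the caller's demand for a minimum peak width was not modelled. How often such a site would be missed was not tested. A missing peak still means that accessibility was not called there and not that the chromatin was closed, since the lists do not give reads outside peaks.

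**Figure D1:**
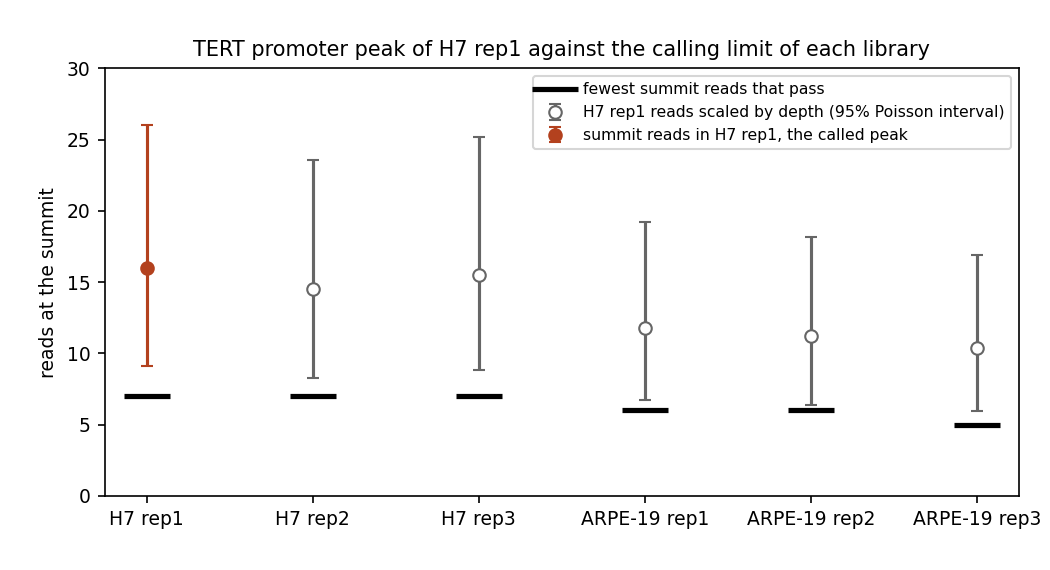
Reads at the summit of the TERT promoter peak. The intervals cover the counting error of H7 replicate 1 and not that of the other libraries. The filled point is the 16 reads of H7 replicate 1. Open points are the same signal scaled to each other library by genome-wide background. The bars are exact 95% Poisson intervals, and the black marks are the fewest reads that pass the threshold of the library. The lower ends of the scaled intervals lie above the marks. The margin was narrowest at 6.41 reads against 6 in ARPE-19 replicate 2 and widest at 8.86 against 7 in H7 replicate 3.

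The TERT gene body had no peak in any of the 3 H7 libraries and none in any of the 3 ARPE-19 libraries. The 40875 bases from 1253287 to 1294161 were searched, and Fisher's exact test of 0 of 3 libraries against 0 of 3 gives p = 1. No other value is possible for such counts. The intragenic part of the gene, its introns and exons after the promoter, was therefore without a called site in either line. In H7 an empty span of this length was ordinary, as the median autosomal stretch between peaks of its 3 lists was 61.5 kb. In ARPE-19 that median was 20.4 kb. How often a gene body of this length holds no peak was not tested.

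Apart from the H7 replicate 1 peak, the nearest peaks lay about 32.4 kb or more from the TERT start. In H7 replicate 1 the next peak upstream began 90.7 kb away and the next downstream ended 1023.5 kb away. In H7 replicate 2 the nearest peaks were 219.8 kb upstream and 65.2 kb downstream, and in H7 replicate 3 they were 442.8 kb upstream and 957.1 kb downstream, both outside the window. In ARPE-19 replicates 1, 2 and 3 the next peak upstream began 32.4, 37.4 and 32.4 kb from the start, and the next downstream ended 132.9, 100.2 and 100.1 kb away. The ARPE-19 libraries thus had nearer upstream peaks than H7 replicates 1, 2 and 3 did, and none over the start. Their lists are also longer, with 40105 to 48454 nuclear peaks against 8613 to 15342 in H7. The ARPE-19 peaks nearest upstream were not kept with lists of equal length. The 3 ARPE-19 lists together left a stretch of 132483 bases without a peak, from 1195049 to 1327531, which holds all of TERT. Such stretches were long but not rare, as 5.63% of the 63803 autosomal stretches between ARPE-19 peaks were at least as long, and these held 37.3% of all autosomal bases between peaks. The 3 H7 lists together left 65155 bases without a peak, from 1229991 to 1295145. That was an ordinary length in H7, as 48.0% of its 25081 autosomal stretches were at least as long and the median was 61.5 kb.

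The 2 flanks of TERT differed within ARPE-19. The flank towards the centromere, upstream of TERT from 1296163 to 1600000, had 13, 9 and 11 peaks in ARPE-19 replicates 1, 2 and 3. The flank towards the telomere, from 1000000 to 1253286, had 1, 1 and 2. Per 100 kb this was 3.62 ± 0.66 peaks on the centromeric flank and 0.527 ± 0.228 on the telomeric flank (SD, n = 3), with the centromeric flank higher in 3 of 3 libraries. An exact permutation test that pairs the flanks within each library gave a two-sided p of 0.25, the smallest that 3 pairs allow. The 3 libraries repeat the same 2 stretches, so this test cannot say whether other neighbouring stretches differ as much, which was not tested.

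On the centromeric flank H7 had far fewer peaks than ARPE-19. There were 1, 1 and 0 peaks in H7 replicates 1, 2 and 3, against 13, 9 and 11 in ARPE-19 replicates 1, 2 and 3. Every H7 library was thus below every ARPE-19 library. The same held in 75.0% of the 4700 tiles of 600 kb with a peak in at least 1 library. How often it holds in stretches of the flank's own length was not tested. The means were 0.667 ± 0.577 peaks in H7 and 11.0 ± 2.0 in ARPE-19 (SD, n = 3 each), a difference of -10.3 (SE 1.2; exact permutation test, two-sided p = 0.1). This test cannot give a p under 0.1 with 3 libraries per line. With lists of equal length, made of the 8613 peaks of highest −log10 p of each library, the means were 0.333 in H7 and 2.0 in ARPE-19, a difference of -1.67 (exact permutation p = 0.2). On the telomeric flank there were 0, 2 and 0 peaks in H7 and 1, 1 and 2 in ARPE-19, so the lines overlapped, and the difference of means was -0.667 (SE 0.745, exact permutation p = 0.6, n = 3 each). That difference turned to 0.333 with a −log10 q of 5 or more and to 0.333 with lists of equal length, where 1 H7 peak and no ARPE-19 peak were left.

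**Figure D2:**
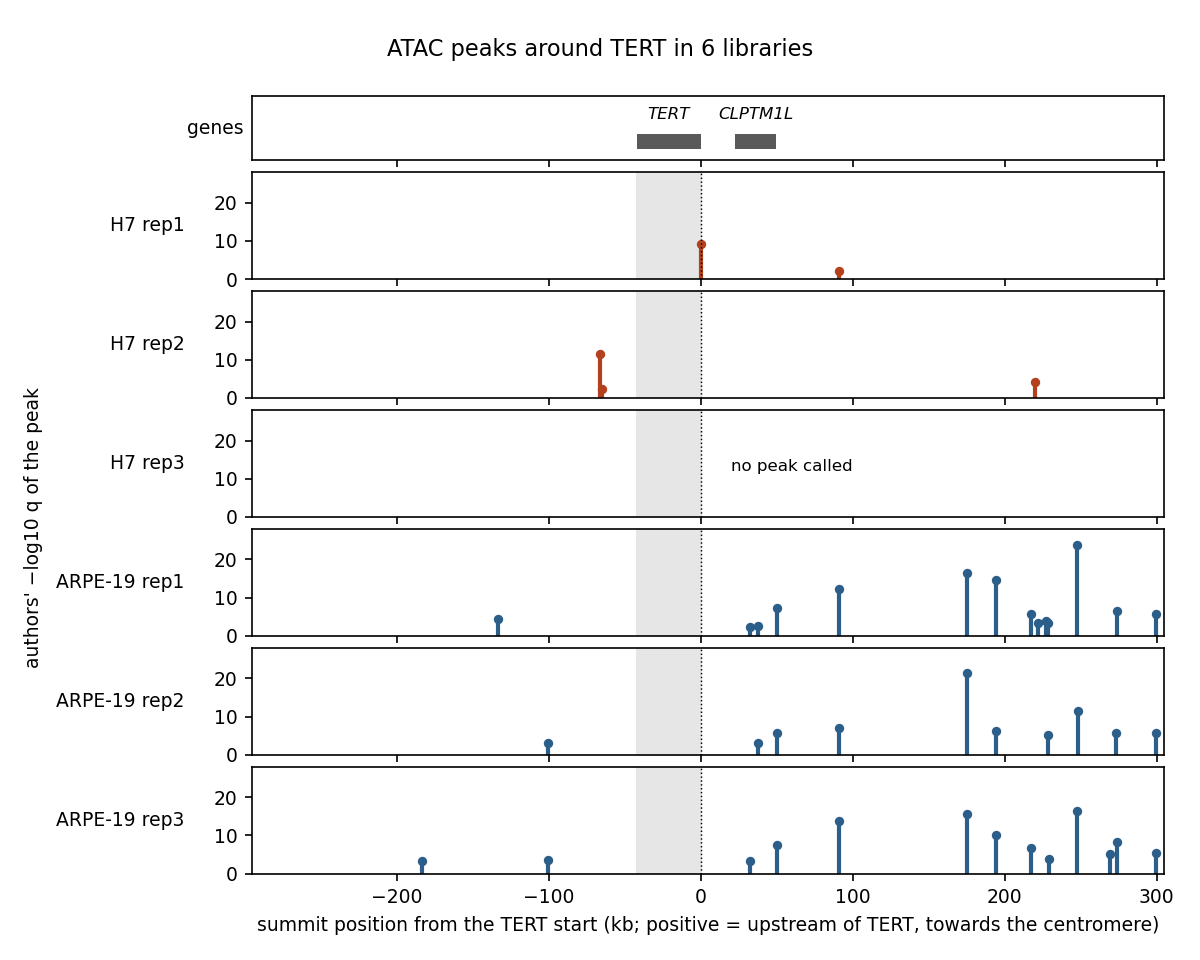
Every peak called around TERT, by library. The horizontal axis is the distance of the summit from the TERT start in kb, positive upstream, the height is the authors' −log10 q, the grey band is TERT and the bars at the top are TERT and CLPTM1L; the H7 libraries have 2, 3 and 0 peaks and the ARPE-19 libraries 14, 10 and 13, and no peak of either line lies inside the gene body.

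Over the whole window H7 replicates 1, 2 and 3 had 2, 3 and 0 peaks, against 14, 10 and 13 in ARPE-19 replicates 1, 2 and 3. The means were 1.67 ± 1.53 in H7 and 12.3 ± 2.08 in ARPE-19 (SD, n = 3 each), a difference of -10.7 (SE 1.49, exact permutation p = 0.1). Such a gap between the lines was common over the genome. Of the 4700 tiles of 600 kb on the autosomes and X with a peak in at least 1 library, 75.0% had fewer peaks in every H7 library than in every ARPE-19 library. The H7 lists hold 8613 to 15342 nuclear peaks and the ARPE-19 lists 40105 to 48454. As a share of its list, the window held 0.013%, 0.0219% and 0% of peaks in H7 and 0.0315%, 0.0249% and 0.0268% in ARPE-19, a difference of -0.0161 percentage points (SE 0.00665, exact permutation p = 0.1, n = 3 each).

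With lists of equal length the lines overlapped in the window. The counts were then 1, 2 and 0 in H7 and 3, 1 and 2 in ARPE-19, with means of 1 and 2 (exact permutation p = 0.5, n = 3 each). The TERT promoter peak of H7 replicate 1 was kept in that set. To enter these lists, an H7 peak needed a −log10 q of at least 1.3 to 3.34 and an ARPE-19 peak one of at least 12.2 to 15.4, depending on the library.

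Set against other stretches of its length, the window was near the middle in H7 replicates 1 and 2, at the low end in H7 replicate 3 and above the median in the ARPE-19 libraries. H7 replicates 1 and 2 had more peaks than here in 54.1% and 35.4% of the tiles, around a median of 3 peaks in both libraries. In H7 replicate 3, 25.0% of the tiles had no peak, as here, and the median was 1. ARPE-19 replicates 1, 2 and 3 had more peaks than here in 16.9%, 31.8% and 27.6% of the tiles, around medians of 9, 8 and 10.

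**Figure D3:**
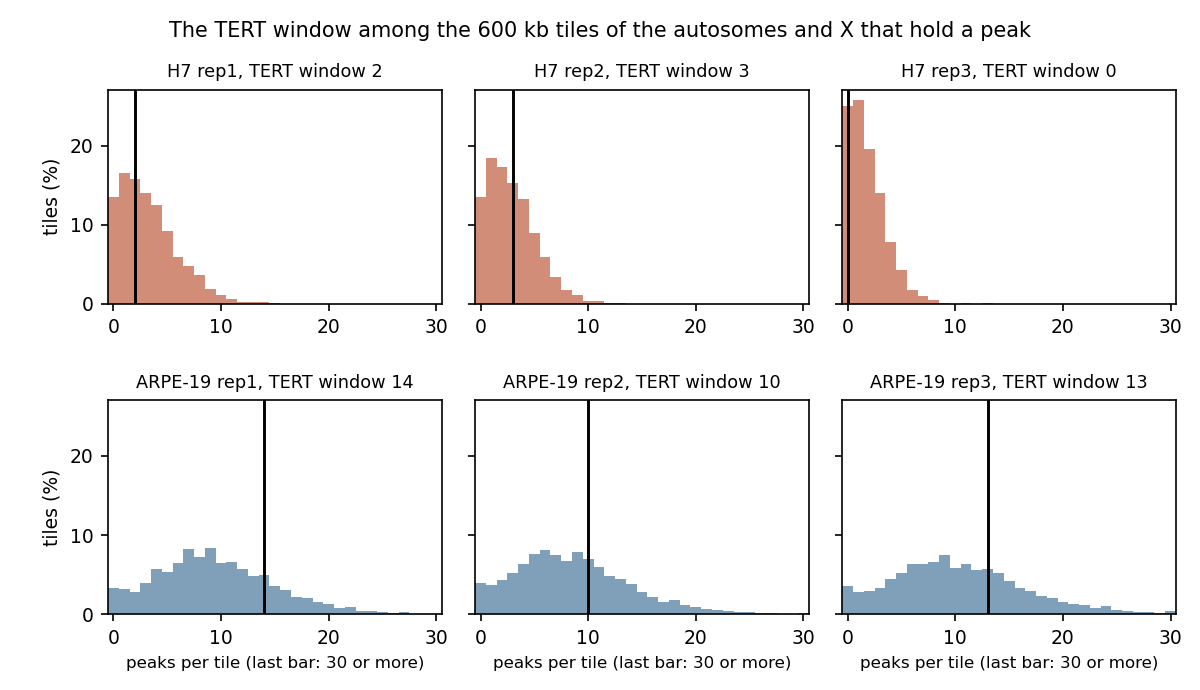
Peaks per 600 kb tile over the autosomes and X, as the percentage of the 4700 tiles that had a peak in at least 1 library, by library, with H7 in the upper row and ARPE-19 in the lower row. The black line is the window around TERT, at 2, 3 and 0 peaks in H7 and at 14, 10 and 13 in ARPE-19.

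Of the 22 merged regions of the window, 4 had a peak in H7 and none in ARPE-19, and in every case a single H7 library had it. That is 18.2% of the regions of the window, where this pattern made up 17.1% of all regions of the genome, so the share is close to the background. Another 17 regions had a peak in ARPE-19 alone, 7 of them in 3 of 3 libraries, 3 in 2 and 7 in 1. The 7 called in all ARPE-19 libraries made up 31.8% of the regions of the window, against 26.0% over the genome. All 7 lay on the centromeric flank, which held 16 of the 22 regions of any class, against 5 on the telomeric flank. A single region, or 4.5%, had peaks in both lines, against 8.51% over the genome.

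The peaks called in H7 did not recur between its libraries here, while most of those in ARPE-19 did. None of the 5 H7 peaks of the window shared a merged region with a peak of another H7 library, where 52.3% of all H7 peaks did. Of the 37 ARPE-19 peaks, 30 shared a merged region with a peak of another ARPE-19 library, where 80.3% of all ARPE-19 peaks did. The H7 count rests on 5 peaks.

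The strongest H7 peak of the window was not at the promoter. It lay from 1228957 to 1229278, between the lower end of the window and the 3′ end of TERT, with its summit 66.1 kb downstream of the TERT start. H7 replicate 2 had it, with 19 reads at the summit, 32.1 times the background of that library, and stood at the 95.9th percentile of the list. Of the 560 peaks of H7 replicate 2 with at least its −log10 q of 11.45, 2.5%, or 14 peaks, had no peak in another H7 library, and it was among those. A weaker peak of the same library lay close by, from 1229814 to 1229990, with 9 summit reads and a −log10 q of 2.41. The local background of both was raised, to 2.29 and 2.33 times that of the library, against 1.83 times at the TERT promoter peak of H7 replicate 1. The remaining region with a peak in H7 alone lay from 1514968 to 1515119, also in H7 replicate 2, with 10 summit reads and a −log10 q of 4.19.

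CLPTM1L, the nearest named neighbour upstream of TERT, had no H7 peak within its span and at least 1 peak in each ARPE-19 library. There were 2, 1 and 1 peaks in ARPE-19 replicates 1, 2 and 3, so 0 of 3 H7 libraries and 3 of 3 ARPE-19 libraries had one (Fisher's exact test, two-sided p = 0.1, the smallest possible). How often a span of this length shows such a split was not tested. Over the autosomes the median stretch between peaks was 20.4 kb in the 3 ARPE-19 lists together and 61.5 kb in those of H7. The ARPE-19 peaks within the CLPTM1L span were weak. A region from 1327532 to 1327920 had 6 and 8 summit reads in ARPE-19 replicates 1 and 3, and 2 regions of 1 library each, from 1332570 to 1332780 and from 1332875 to 1333027, had 7 and 6. Their −log10 q ran from 2.38 to 3.3, and none reached 5, so with that threshold or with lists of equal length no library had a peak within that span. The upper end of the span, 1345000, is approximate. A stronger ARPE-19 region that began at 1345145 was not counted in it, so the counts depend on where that end is set.

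A firmer site lay just beyond the approximate upper end used for CLPTM1L. That end is on the side of its start, as RefSeq places the gene on the minus strand. The RefSeq start was not placed on hg19, so whether the site covers it was not tested. The region from 1345145 to 1345352 had no peak in H7 and 11, 10 and 11 summit reads in ARPE-19 replicates 1, 2 and 3. The authors' −log10 q was 7.19, 5.56 and 7.52, and the reads were 23.5 ± 2.1 times the background (SD, n = 3). The TERT promoter peak of H7 replicate 1, at 24.5 times the background of its library, lay within the spread of this site, but it was called in 1 library of its line and this site in 3.

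The 1 region called in both lines lay from 1385853 to 1386330, about 90.7 kb upstream of the TERT start and past CLPTM1L. It had a peak in H7 replicate 1 and in all 3 ARPE-19 libraries. The summit held 6 reads in H7 replicate 1, against 15, 11 and 18 reads in ARPE-19 replicates 1, 2 and 3. Relative to the background of each library this was 9.19 in H7 replicate 1, and 31.1, 24.0 and 42.3 in ARPE-19, a log2 difference of -1.78 from the ARPE-19 mean, whose SD between libraries was 0.41 (n = 3). Against the local background of each peak the log2 difference was -0.9. The H7 value stood below all ARPE-19 values, and with 1 H7 library it has no test. It is 1 of 8 regions of the window that all 3 ARPE-19 libraries shared, and of these 8 it alone had an H7 peak. Over the genome 17.3% of such regions had one.

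The 2 strongest ARPE-19 sites of the window, by mean reads over background, lay further upstream. The region from 1470018 to 1470315 had no peak in H7 and 20, 24 and 19 summit reads in ARPE-19 replicates 1, 2 and 3, or 46.2 ± 5.66 times the background (SD, n = 3). The region from 1542932 to 1543205 had no peak in H7 and 25, 15 and 20 reads in ARPE-19, or 43.9 ± 9.89 times the background. Next in order came the region called in both lines, at 32.5 ± 9.22 times the background in ARPE-19, and then a site at 1489423 to 1489722. That site had no peak in H7 and 17, 11 and 13 reads in ARPE-19, or 29.9 ± 5.61 times the background. These 3 sites without an H7 peak began 175 to 248 kb from the TERT start.

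The other 3 sites of this class were weaker. The region from 1568513 to 1569075 had 12, 10 and 13 reads in ARPE-19 replicates 1, 2 and 3, that from 1523813 to 1524190 had 8, 10 and 8, and that from 1594437 to 1595025 had 8 in each. On the scale of reads over background they ranged from 17.6 ± 1.13 to 25.8 ± 4.42 (SD, n = 3), and none had a peak in H7. The 10 regions called in 1 or 2 ARPE-19 libraries had 6 to 13 summit reads each. Of these, 3 lay on the telomeric flank and had 6 or 7 reads, with no H7 peak.

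**Figure D4:**
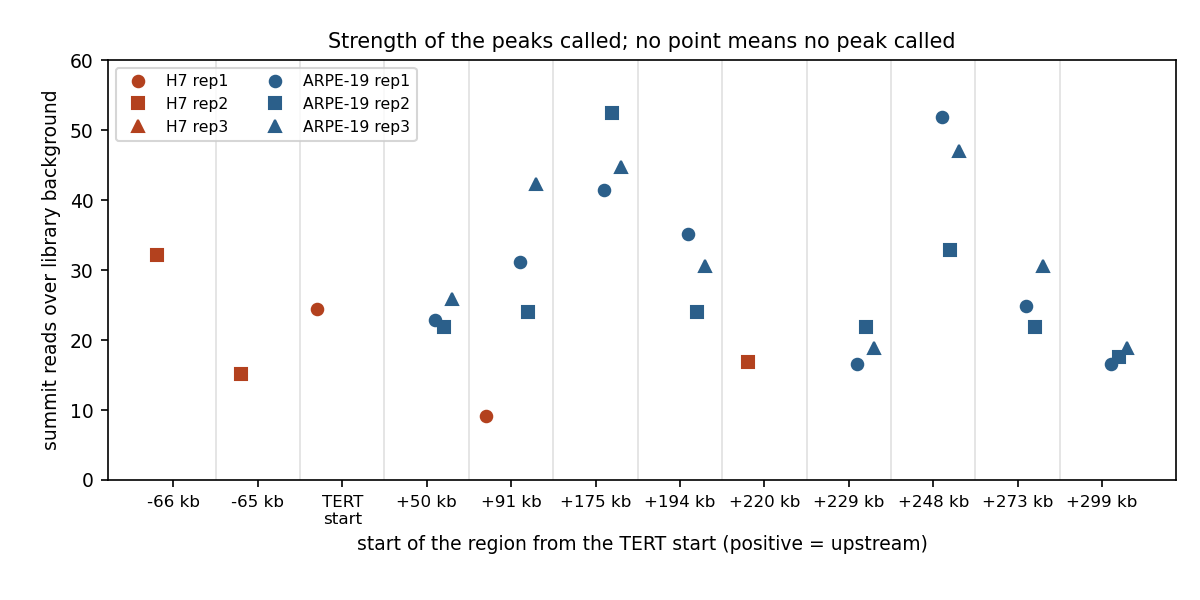
Summit reads over the genome-wide background of the library, for each region with an H7 peak and each region with a peak in all 3 ARPE-19 libraries, ordered by distance of the region's start from the TERT start. H7 libraries are red and ARPE-19 libraries blue, shapes mark replicates, and a missing point means that no peak was called; the TERT start has a single H7 point at 24.5, and the region called in both lines has an H7 point at 9.19 below ARPE-19 points at 24.0 to 42.3.

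The 5 H7 peaks and the 37 ARPE-19 peaks of the window each had a median of 10 summit reads, over mean genome-wide backgrounds of 0.626 reads in H7 and 0.455 in ARPE-19. The median −log10 q was 4.19 in H7 and 5.67 in ARPE-19. Within their lists, the peaks stood at the 17.5th to 95.9th percentile in H7, with a median of 58.3, and at the 7.1st to 94.7th percentile in ARPE-19, with a median of 41.4. Widths ran from 152 to 455 bases in H7, where the TERT promoter peak was the widest, and from 141 to 482 bases in ARPE-19. The median width in the window was 206 bases in H7 and 241 bases in ARPE-19, in lists whose median widths were 224 to 229 bases in H7 and 261 to 275 bases in ARPE-19.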

How the data were processed

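ATAC-seq peak lists of 3 H7 and 3 ARPE-19 libraries were used; the 6 chromosome conformation capture samples were not analysed here. The submitters' processing notes name hg19, MACS2 and bedtools. The aligner, versions, removal of duplicates and read shifting are not given in the sources used here, and unshifted reads would move a summit by a few bases. Each deposited list comes from a single library and gives per peak a score, a fold enrichment (a ratio to the local background) and −log10 values of p and q. These are the authors' own values and serve here to describe, rank or filter peaks. Read totals are not in the lists.

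Peaks on chromosomes 1 to 22, X and Y were kept, in 1-based positions. Gene positions came with the choice of the window, and that of CLPTM1L is approximate. Overlap by at least 1 base assigned a peak to the promoter, gene body or CLPTM1L, and the summit assigned it to a flank. Summit reads and local background were solved from fold and p as MACS2 defines them, and met the deposited −log10 p within 0.001 for at least 99.988% of peaks per library. The commonest background of a library was used as relative depth, at which called summits held 4 to 6 reads or more. Differences are H7 minus ARPE-19, by exact permutation over 20 assignments or Fisher's exact test, both two-sided. Named regions touched the promoter, gene body or CLPTM1L, had an H7 peak, or were called in all libraries of a line; the rest are counts and ranges. The planned test of regions called in both lines needed 2 libraries per line and was not run. The window and these choices were made with earlier results of these data known. Promoter sequences are from RefSeq (GRCh38.p14). Steps were tested on simulated data. Software was Python 3.11.15 with numpy 2.4.6, scipy 1.17.1, pandas 2.3.3 and, for plots, matplotlib 3.10.9. Alternatives covered stricter peaks, lists of equal length, promoter width, window size, assignment, a replicate block and leaving out each library.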

Additional observations from a re-analysis of the deposited data

How the results depend on the processing

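The call at the TERT promoter rests on H7 replicate 1: the number of H7 libraries with a peak minus that of ARPE-19 libraries was 1, and 0 to 1 on leaving out each library. It stayed at 1 with strict peaks (−log10 q of 5 or more), with lists of equal length, by the summit, and with 500 bases, 2 kb or 5 kb on each side of the start. The gene body gave 0 in all settings run for it. For CLPTM1L the value of -3 became 0 with strict peaks and 0 with lists of equal length, as every peak within the approximate span fell under those thresholds, and it was -3 to -2 on leaving out each library. The firmer ARPE-19 site just past the upper end of that span was not counted. On the telomeric flank the difference of -0.667 peaks turned to 0.333 with strict peaks and to 0.333 with lists of equal length, since no ARPE-19 peak and 1 H7 peak were left, and ranged from -1.33 to -0.333 without each library. In the window the difference of -10.7 peaks was -7.67 with strict peaks, -1.0 with lists of equal length, -2.0 within 100 kb of the TERT start, -18.3 within 1 Mb, and -11.8 to -9.83 without each library. On the centromeric flank it was -10.3 with all peaks, -8.33 with strict peaks, -1.67 with lists of equal length (exact permutation p = 0.2, n = 3 each), and -11.3 to -9.33 without each library. The share of the list in the window differed by -0.0212 to -0.0103 percentage points without each library. In the region called in both lines the log2 difference of -1.78 became -0.9 against the local background, which was raised in the ARPE-19 libraries and not in H7 replicate 1, and ranged from -1.98 to -1.57 without each ARPE-19 library; without H7 replicate 1 it has no value. The libraries of the lines share replicate numbers but nothing ties them: deviations of same-numbered libraries correlated by 0.002, 0.006 and 0.027. With a replicate block the differences were -10.7 in the window (exact paired p = 0.25), -10.3 on the centromeric flank, -0.667 on the telomeric flank and -0.0161 percentage points. With 3 pairs no p can fall below 0.25, and with 3 libraries per line none below 0.1, so these p-values do not bear on stability. At the local background of the TERT promoter, a site needed 5 to 7 summit reads to be called.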
